A study of Capra hircus with 3 samples.

Results

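Chemokines, interleukins and the tumor necrosis factor (TNF) family, with their receptors, were followed in the skin of Arbas Cashmere goats kept under a short or a natural photoperiod. The goat RNA was measured with probes designed for sheep, and the effect of sequence differences between the species on signal was not tested. Members were taken from the array's own annotation: a gene name beginning with CCL, CXCL, CCR, CXCR, TNF or IL and a digit, or a description holding the words chemokine, interleukin or tumor necrosis factor, with toll-like receptors and interferon regulatory factors left out. This gave 37 of the 14363 identifiers on the array, carried by 58 of 15008 probes and 82 of 15208 spots.

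The skin came from 6 female goats that were 2 years old, 3 in each group, all of 1 strain. The short photoperiod goats had daylight and pasture only between 9:30 and 16:30. At other hours they were shut in at about 0.1 lux, 1 degree cooler than outdoors. The other group had the daylight of the season, and by the paper all samples were taken in July. Each of the 3 arrays compared 1 goat of each group, the 2 being of the same parent, with the short photoperiod in Cy5 and the natural photoperiod in Cy3. The dyes were not swapped, so dye bias and photoperiod cannot be told apart. All values are log2 ratios of short over natural photoperiod, so a value below 0 is a lower level under the short photoperiod, and their number of 3 limits the precision. In whole skin, fewer cells of a type and less RNA per cell cannot be told apart.

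Cytokines are secreted signals by which skin and immune cells call, activate or restrain each other. Chemokines guide migrating leukocytes through receptors coupled to G proteins, most interleukins act through receptors that engage JAK kinases and STAT factors, and TNF and the interleukin-1 group act mainly through NF-kB. Keratinocytes are themselves a source of interleukin-1 and its antagonist, and the hair bulb in its growth phase is known as a site of restrained immune activity.

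With limma and Benjamini-Hochberg adjustment over 14977 probes, 0 of the 58 member probes had an adjusted p under 0.05, beside 0.00668% of all tested probes. No member reached a mean change of 2-fold in either direction, beside 0.376% of detected probes at a log2 ratio of at least 1 and 0.413% at -1 or less, but without array 2 CXCL10 (-1.26) and 1 probe of TNFSF13B (-1.31) did. A probe counts as detected if Cy5 and Cy3 were both well above background on each of the 3 arrays. At an unadjusted p under 0.05, 10 of 49 detected member probes were lower under the short photoperiod and 3 were higher, beside 9.91% and 9.34% of all detected probes. The 10 lower probes belong to 6 genes, and probes of 1 gene are not independent. Of the 49, 12 were below 0 on every array and 8 above 0, where 22.2% and 21.9% of detected probes were.

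Of the ligands, 33 of 40 probes (82.5%) were detected, for 19 of 22 gene names, and of the receptors 9 of 11 probes (81.8%), for 5 of 6 names. By role, 22 of 29 interleukin probes, with IL8 sorted here by its name, and 4 of 6 chemokine receptor probes were detected. So were all probes of chemokine ligands (7), TNF family ligands (4), interleukin receptors (4) and TNFRSF1A (1). All 7 probes of the remaining proteins, which the wording of the descriptions brought in, were detected. Over the whole set 84.5% of the probes were detected, beside 90.5% of all probes. The genes with no detected probe were IL2, IL3 and IL4, cytokines made chiefly by activated T cells, and CCR9, the receptor of CCL25. One probe each of IL12A and IL18 was undetected beside others that were detected. Neither IL3 nor IL4 was well above background in either channel on any array. CXCL12, CXCR4, CCL2 and CCR7 have no probe under these names. A probe described as CXCR1, a receptor of IL8, falls outside the rule for members. It was well above background in Cy5 on 2 arrays, so was not detected, and gave -0.07, -0.33 and -1.53.

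**Figure D1:**
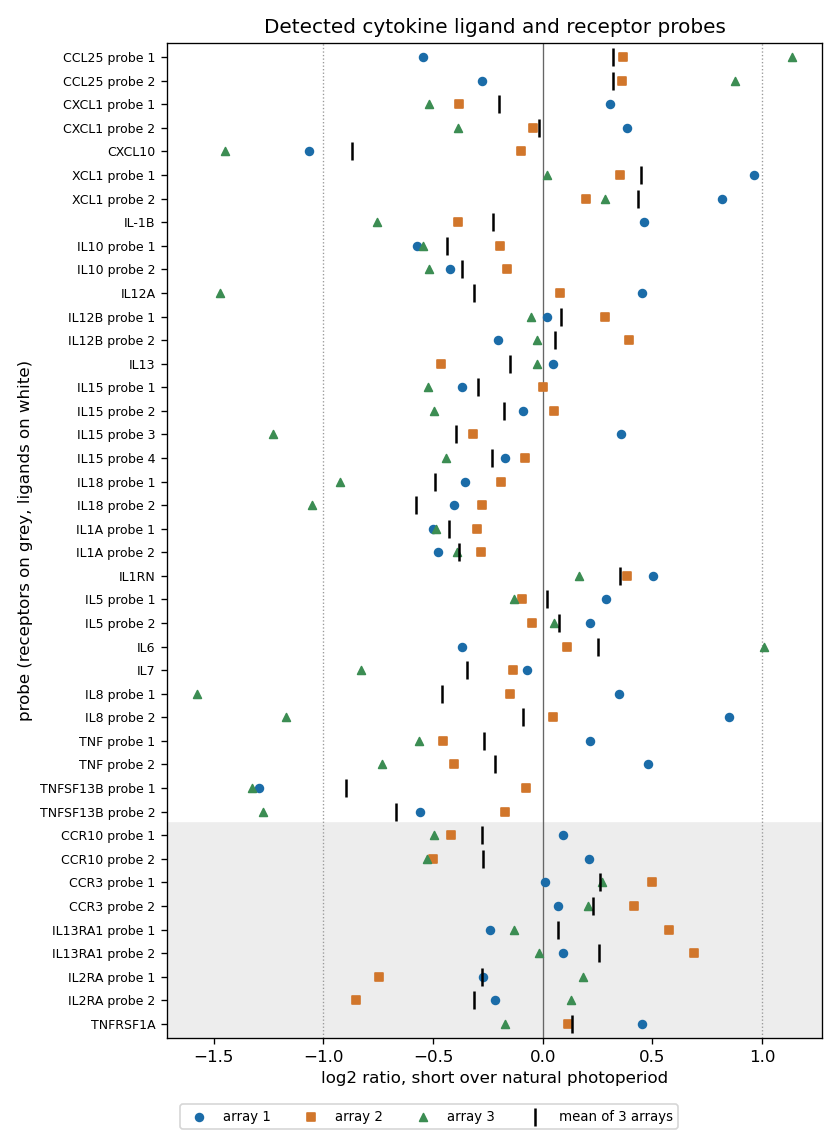
Log2 ratio of short over natural photoperiod (horizontal axis) on each of the 3 arrays for the 33 detected ligand probes (white) and 9 detected receptor probes (grey), with the mean as a vertical bar and dotted lines at a 2-fold change. The means of the ligand probes run from -0.90 to 0.45 and those of the receptor probes from -0.31 to 0.26.

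Ligands and receptors were compared by their medians. The median log2 ratio of the detected ligand probes was -0.07, -0.09 and -0.52 on arrays 1, 2 and 3, and that of the receptor probes was 0.07, 0.11 and -0.02. Over all detected probes the 3 medians lay between -0.0035 and 0.0027. The ligand median was therefore below the receptor median on each array, and the distance was widest on array 3. The ligands were not alike in this. The 22 interleukin probes had medians of -0.08, -0.11 and -0.51. The 7 chemokine probes, of 4 genes without IL8, had medians of 0.31, 0.20 and 0.02, above the receptor probes on each array. By gene the order turned: the median of the gene means was 0.11 for chemokines and 0.13 for receptors. IL8, the chemokine CXCL8, was sorted by its name with the interleukins. Its probes gave 0.35 and 0.85 on array 1, but -0.15 and 0.05 on array 2 and -1.58 and -1.17 on array 3. The last 2 pairs lie below the receptor medians of those arrays. Chemokine medians with IL8 were not taken, so those given hold for the 4 genes only. By means over the arrays, 23 of 33 ligand probes were below 0 and 4 of 9 receptor probes, beside 50.4% of all detected probes. The median of these means was -0.23 for ligands (-0.26 for interleukins and 0.32 for chemokines) and 0.07 for receptors. Without array 3 it was -0.04 for ligands and 0.17 for receptors. The chemokine probes then ran from -0.58 for CXCL10 to 0.66 for XCL1, with CCL25 in the middle at 0.04, below the receptor median. The interleukin median was not taken with 1 array left out. Without array 1 the ligand and receptor medians were -0.34 and -0.03, and without array 2 -0.17 and -0.04, so the receptor median then was below 0. The difference was not tested, since the members were chosen with results known.

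Among the detected ligand probes, those of IL1A had the smallest SDs. IL1A, an alarm signal stored in keratinocytes, gave -0.50, -0.30 and -0.49 with 1 probe and -0.48, -0.28 and -0.39 with the other. The mean was -0.43 ± 0.11 (SD, n = 3) and -0.38 ± 0.10, a fold change of 0.742 and 0.768, with a limma adjusted p of 0.179 and 0.191. Both probes were lower on every array, although the goats of the 2 groups overlap, and the level differed more between arrays than between the goats of an array. In normalized intensity the first probe read 11446, 7163 and 8122 in the short photoperiod goats and 16181, 8831 and 11387 in the natural goats.

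IL1RN, the antagonist that occupies the interleukin-1 receptor without signalling, lay in the opposite direction. Its ratios were 0.50, 0.38 and 0.16, with a mean of 0.35 ± 0.17 (SD, n = 3), a fold change of 1.27 and an adjusted p of 0.226. Its intensity was 15939, 13979 and 13858 in the short photoperiod goats and 11256, 10706 and 12362 in the natural goats, so that all goats of the short photoperiod were above all natural goats. Of the 49 detected member probes, 3 were separated in this direction and 3 in the other, beside 6.37% and 7.14% of all detected probes.

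IL1B, named IL-1B on the array and the inducible partner of IL1A, gave 0.46, -0.39 and -0.75, with a mean of -0.23 ± 0.62 (SD, n = 3), which was 0.04 without array 3 and -0.57 without array 1. It was higher under the short photoperiod on array 1 and lower on the others. In the goat annotation ARS1.2, where 26 of 34 gene names were matched by symbol and 0 of 37 identifiers by accession, IL1A and IL1B are direct neighbours, and 7 coding genes lie between IL1B and IL1RN.

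IL18, an interleukin-1 relative that drives interferon gamma production, gave -0.41, -0.28 and -1.05 with 1 probe of its reference record and -0.35, -0.19 and -0.92 with the other. The means were -0.58 ± 0.42 and -0.49 ± 0.38 (SD, n = 3), with adjusted p-values of 0.222 and 0.240. Both were lowest on array 3, without which the means were -0.34 and -0.27, and for the first probe all short photoperiod goats were below all natural goats. A probe to an expressed sequence tag named IL18 gave 0.43, 0.52 and 0.39, in the opposite direction, but was well above background in Cy3 on only 2 arrays. Of the detected probes of IL1A, IL1B, IL1RN and IL18, those with ratios of 1 sign on every array and an unadjusted p under 0.05 are shown. Each is 60 bases long and free of stop codons in at least 1 of 3 forward frames, and capitals mark the 20 bases that the IL18 probes share.
IL1A, first probe: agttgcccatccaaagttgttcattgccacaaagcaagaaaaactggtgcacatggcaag
IL1A, second probe: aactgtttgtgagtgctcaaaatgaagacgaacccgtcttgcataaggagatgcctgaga
IL1RN: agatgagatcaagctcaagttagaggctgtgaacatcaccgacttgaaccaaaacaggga
IL18, first probe: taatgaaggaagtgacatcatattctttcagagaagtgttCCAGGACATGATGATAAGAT
IL18, second probe: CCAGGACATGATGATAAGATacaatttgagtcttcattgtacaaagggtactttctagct

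**Figure D2:**
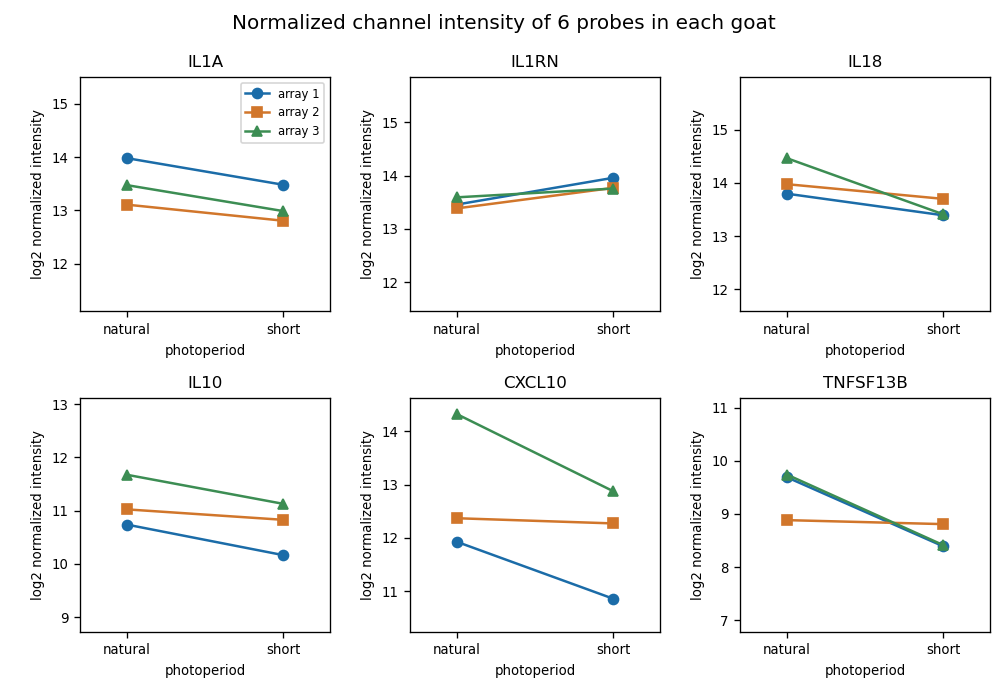
Log2 normalized intensity (vertical axis, of equal span in every panel) of 1 probe of each of 6 genes in the natural and the short photoperiod goat of each array, joined by a line. IL1A, IL18, IL10, CXCL10 and TNFSF13B are lower in the short photoperiod goat of every array and IL1RN is higher.

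Among the other interleukins, IL10, which restrains macrophages and T cells, was below 0 on every array with both probes. One gave -0.57, -0.20 and -0.55 and the other -0.43, -0.16 and -0.52, with means of -0.44 ± 0.21 and -0.37 ± 0.18 (SD, n = 3) and adjusted p-values of 0.199 and 0.223. Array 2 held the smallest difference, and the goats of the groups overlap.

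IL15, which sustains natural killer and memory T cells, has 4 probes on 2 records. Their means ran from -0.40 to -0.18, and 1 of the 4 was below 0 on every array. With 1 array left out they ran from -0.77 to 0.02, and all 4 were nearest 0 without array 3. Its receptor chain shared with IL2 was not among the members, while IL2RA, the alpha chain of the IL2 receptor, gave -0.27, -0.75 and 0.18 with 1 probe and -0.22, -0.85 and 0.13 with the other. IL2RA was lowest on array 2, without which both of its means moved from -0.28 and -0.31 to -0.04, while without array 3 they were -0.51 and -0.54. On array 2 the 4 IL15 probes lay between -0.32 and 0.05.

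IL8, the neutrophil attractant CXCL8, was not alike on the arrays: 0.85, 0.05 and -1.17 with 1 probe and 0.35, -0.15 and -1.58 with the other. IL12A, a subunit of interleukin-12, gave 0.45, 0.08 and -1.47 with its detected probe. IL6, an acute phase cytokine, gave -0.37, 0.11 and 1.01, with the signs of arrays 1 and 3 turned. The SDs of these genes were between 0.70 and 1.02, and their means changed sign without array 3. Of these, IL6 read 119 to 241 in normalized intensity and the detected IL12A probe 169 to 536. The undetected IL2 probes read 120 to 249, so signal near background limits the ratios of IL6 and IL12A. IL7, a survival factor of lymphocytes, gave -0.07, -0.13 and -0.83, with a mean of -0.34 ± 0.42 (SD, n = 3) that was -0.10 without array 3.

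Of the chemokines, CXCL10, which attracts activated T cells and is induced by interferons, gave -1.07, -0.10 and -1.45, with a mean of -0.87 ± 0.70 (SD, n = 3), a fold change of 0.547 and an adjusted p of 0.223. The difference was near 0 on array 2 and beyond 2-fold on the others, and the goats overlap. The 5 spots of the probe had an SD of at most 0.030 on an array. Its receptor CXCR3 is not among the members.

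XCL1, made by activated T and natural killer cells, gave 0.82, 0.20 and 0.29 with 1 probe and 0.96, 0.35 and 0.02 with the other, which share 59 bases. The means were 0.43 ± 0.34 and 0.45 ± 0.48 (SD, n = 3), with adjusted p-values of 0.247 and 0.313. Array 1 was highest with both, and without it the means were 0.24 and 0.19. CCL25, which draws T cells to gut and thymus, gave -0.55, 0.37 and 1.14 and -0.28, 0.36 and 0.88, and differed in sign between arrays. Its means of 0.32 and 0.32 became -0.09 and 0.04 without array 3, and 0.75 and 0.62 without array 1.

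CXCL1, a neutrophil attractant, gave 0.31, -0.38 and -0.52 with 1 probe and 0.39, -0.05 and -0.39 with the other. Its direction depended on the normalization. With loess the means were -0.20 and -0.02, or -0.04 and 0.17 without array 3 and -0.45 and -0.22 without array 1, and with each array centred on its median they were 0.61 and 0.61. The adjusted p-values then were 0.046 and 0.041, and over all alternatives they ran from 0.046 to 0.962 and from 0.041 to 0.999.

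In the TNF family, TNF, the main inflammatory signal of macrophages, gave 0.48, -0.41 and -0.73 and 0.22, -0.45 and -0.56 with probes of 2 records. It was above 0 on array 1 and below 0 on the others, as were IL1B and CXCL1. The means of -0.22 and -0.27 became 0.04 and -0.12 without array 3, and -0.57 and -0.51 without array 1. TNFSF13B, the B cell survival factor BAFF, had the lowest mean of all members. Its probes gave -1.30, -0.07 and -1.32, and -0.56, -0.17 and -1.28, with means of -0.90 ± 0.71 and -0.67 ± 0.56 (SD, n = 3), fold changes of 0.536 and 0.629 and adjusted p-values of 0.222 and 0.233. With the first probe all short photoperiod goats were below all natural goats, and array 2 again showed little difference. Without array 3 the mean of the second probe was -0.37.

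Of the receptors, TNFRSF1A, the main receptor of TNF, gave 0.45, 0.11 and -0.17, with a mean of 0.13 ± 0.31 (SD, n = 3), which was -0.03 without array 1 and 0.28 without array 3. CCR3, the eotaxin receptor of eosinophils, gave 0.01, 0.50 and 0.27 with 1 probe and 0.07, 0.42 and 0.20 with the other. The means were 0.26 ± 0.25 and 0.23 ± 0.17 (SD, n = 3), with adjusted p-values of 0.353 and 0.348, and both were 0.14 without array 2. CCR10, which brings T cells to skin, had means of -0.28 and -0.27 and was above 0 on array 1, without which they were -0.46 and -0.51. Without array 3 they were -0.16 and -0.15. IL13RA1, a receptor chain for interleukins 4 and 13, had means of 0.07 and 0.25, or -0.19 and 0.04 without array 2 and 0.17 and 0.39 without array 3. No detected receptor probe had an unadjusted p under 0.05, and 9 of 33 ligand probes were lower and 2 higher at that level, beside 9.91% and 9.34% of all detected probes. With 9 receptor probes, the 0 is not read as a difference from the ligands.

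Of the proteins brought in by their descriptions, TNFAIP8, a TNF-induced protein, gave -0.35, -0.40 and -0.38, with a mean of -0.38 ± 0.023 (SD, n = 3) and an adjusted p of 0.185, and with each array centred on its median the mean was -0.20. IRAK4, a kinase of the interleukin-1 receptor pathway, gave 0.33, 0.27 and 0.23 with 1 probe and 0.04, 0.05 and 0.23 with the other.

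Genes around the cytokines were taken from lists, and 0 of their probes had an adjusted p under 0.05. Of 11 detected probes for targets induced by TNF and IL-1, 9 were below 0, beside 50.4% of all detected probes, and 6 were lower at an unadjusted p under 0.05, beside 9.91%. The 6 are of SELE, PTGS2, MMP9 and SELP, and probes of 1 gene are not independent. The 2 probes above 0 were both of NOS2, with means of 0.11 and 0.06. SELE, the endothelial adhesion molecule, gave -1.17, -1.15 and -0.77 and -0.88, -0.83 and -0.26, and PTGS2, the inducible prostaglandin synthase, had means of -0.57 and -0.76. Of 4 probes for NF-kB and TNF receptor signalling, 1 was below 0, and 1 was higher at that level, beside 9.34%: MYD88, an adapter of the interleukin-1 receptor, at 0.60, 0.20 and 0.47. Among 7 probes for other cytokine family genes, 6 were below 0, 3 of them at that level. They include a regakine 1-like chemokine at -1.65, -0.58 and -1.19 and at -1.71, -0.64 and -1.18, whose means of -1.14 and -1.18 were -0.68 and -0.67 with median centring. IRAK4 and XCL1 were left out of these lists because they are members.

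Markers of cell types were read in the same samples, and 0 of their probes had an adjusted p under 0.05. All 9 detected myeloid probes, for CD14, FCER1G, FCGR1A, ITGAM and LYZ, were below 0 with an unadjusted p under 0.05, where 9.91% of all detected probes were lower and 9.34% higher, with medians of -0.49, -0.20 and -0.48 on arrays 1, 2 and 3. Of 10 T cell probes 9 were below 0, 5 of them at that level, with medians of -0.21, -0.29 and -0.48, and both CD4 probes were not detected. All 5 granulocyte and mast cell probes had means below 0, 2 at that level, with a median mean of -0.46. Their array medians were nearer 0, at -0.31, -0.14 and -0.05, and MS4A2 gave -1.49, 0.10 and -0.05. All 4 natural killer cell probes, of GNLY alone, had means above 0, with 0 at that level and a median mean of 0.33. Their array medians were -0.05, 0.50 and 0.58, so array 1 differed in sign. The 3 tested of 4 keratinocyte probes, of KRT14 and TP63, were above 0 at that level. Their median mean was 0.91, and their array medians were 1.32, 1.12 and 0.26. Of the dermal fibroblast probes 5 of 7 had means below 0, 2 at that level, with a median mean of -0.23. Their array medians were -0.44, -0.02 and 0.08, and VIM had no value on array 3. HBB, the erythrocyte marker, was at -2.11 on array 2 and 1.15 on array 3 with 1 probe. Markers of B cells, Langerhans and dendritic cells, all leukocytes, endothelium and skeletal muscle had no probe under the listed names. The part of cell composition in the cytokine ratios was not tested.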

How the data were processed

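Per spot, the deposited files give a mean intensity and a local background in each dye, which the authors read from the images with Feature Extraction 10.7.3.1 and did not normalize. The log10 ratio in these files was made by the authors with lowess, and the deposited value table holds log2 ratios of Cy5 over Cy3. The table's medians were 0.0082, 0.0012 and 0.0179, and 96.9% to 98.3% of single-spot probes equalled the scanner's ratio to within 0.001. This settles scale, centring and direction of the table, but not each of its values. The correlation with the scanner's ratio was 0.982, 0.957 and 0.904 on arrays 1, 2 and 3.

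In R 4.3.3 with limma 3.58.1, normexp (offset 50) was followed by loess within arrays, without control spots and with the 38, 65 and 91 outlier spots at weight 0 and then left out. Loess was run with 5 choices of the spots that set its curve. The one used was chosen after the counts were seen, because its counts over all probes equalled earlier counts from these data. The 5 gave 64 probes 2-fold higher, 62 to 64 lower, 1 call each and 2764 to 2767 unadjusted p-values under 0.05, and moved no member mean by more than 0.028.

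Repeated spots were averaged, and each probe with at least 2 arrays was tested against 0 with lmFit and eBayes, adjusted by Benjamini-Hochberg over all tested probes. The pairing of goats comes from the paper, as does the name natural photoperiod for the group that the sample titles call a long one. Channel intensities were scaled by Aquantile. The test was checked on simulated data whose changes were larger than the mean of any member. That check does not show whether changes of the size seen in members would be found with 3 arrays. By the codes in the scanner files the 3 arrays are on 1 slide read in 1 scan, where the paper gives a slide to each sample, so no batch was tested. Median spot intensities ranged from 4587 to 7120 for Cy5 and from 2688 to 3911 for Cy3. Alternatives changed the background correction, normalization, filters, signal, arrays, variance model and averaging.

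Genes named with values are detected ligands and receptors of like direction on all arrays and unadjusted p under 0.05, detected members with a 2-fold mean, a list of cytokines, and detected members of known ligand and receptor pairs. CCL25, CXCL1, CCR3, CCR10, IL7, IL12A, IL13RA1, TNFAIP8, IRAK4 and the undetected probe of IL18 fall outside this rule and were chosen after their values were seen. Members and lists were chosen with earlier results of these data known. The values of some members and listed genes are not reported here.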

Additional observations from a re-analysis of the deposited data

How the results depend on the processing

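Under the planned and added alternatives, the 41 member probes given with values had 737 further values, of which 720 kept their direction and their side of the threshold. Means that changed sign when 1 array was left out ranged from -0.57 to 0.036 for TNF, -0.86 to 0.098 and -0.56 to 0.45 for IL8, -0.13 to 0.56 for IL6, -0.57 to 0.038 for IL1B, -0.77 to 0.019 for 1 IL15 probe, -0.70 to 0.26 for IL12A, -0.090 to 0.75 for CCL25 and -0.22 to 0.17 for CXCL1, all turning without array 3. IL13RA1 ranged from -0.19 to 0.22, turning without array 2, and TNFRSF1A from -0.028 to 0.28, turning without array 1. Median centring turned IL6 to -0.14 and CXCL1 to 0.61 with both probes, and the second CXCL1 probe was at 0.0092 with Feature Extraction's ratios and with the authors' table. Among means that kept their sign, median centring moved the second TNF probe from -0.27 to -0.52 and 1 IL15 probe from -0.23 to -0.46. It moved IL12A from -0.31 to -0.63 and TNFRSF1A from 0.13 to 0.049. The undetected IL18 probe ran from 0.018 to 1.06. Of 162 values for 9 probes of listed genes, added with it after the data were seen, 155 kept direction and side. HBB turned to 0.60 and 0.74 without array 2. Both SELE probes and 1 of PTGS2 passed the threshold with median centring, and 1 of SELE and 1 of the regakine with the fit of both channels. The cause was not tested.

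Median centring called 3 member probes higher, 1 of IL1RN at 0.50 (adjusted p of 0.048, and 0.048 to 0.673 over its alternatives) and 2 of CXCL1, and 4 lower, of IL2 and IL4, which were not detected. It called 1880 probes in all, 12.6% of those tested, and every other setting called 0 members. A fit of both channels with their spot correlation called 163 probes in all, and 11 of its variance estimates did not converge. Member probes past 2-fold were 0, but 1 was lower with median centring (beside 0.514% of all tested probes) and 1 without an offset (0.554%). There were 2 higher and 2 lower with Feature Extraction's ratios (1.11% and 0.884%), and 3 higher and 2 lower with the authors' table (2.39% and 0.773%). With 1 array left out, 0 to 2 were lower (0.516% to 1.2%). None of the higher ones and, of the lower ones with these ratios or this table, only TNFSF13B were detected.

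Of all 58 member probes, 4 were higher and 12 lower at an unadjusted p under 0.05, beside 18.5% of all tested probes in the 2 directions together. These became 6 and 15 with median centring (beside 34.2%), 2 and 7 of 37 identifiers with their probes averaged (18.4%), 1 and 5 with the channels as unpaired samples (7.32%), which was added after the data were seen, and 1 to 5 and 7 to 12 with 1 array left out (10.8% to 16.3%). With 1 array left out the ligand median was -0.34 to -0.04 and the receptor median -0.045 to 0.17, the latter below 0 without array 1 or array 2. With the probes of each identifier averaged the receptor median was 0.13 and the ligand median -0.24. The 4 other loess weightings, run before the choice among them, moved none of these counts by over 1.5 times. Of the detected member probes, 4 to 8 had all short goats above all natural goats with 1 pair left out, beside 12.6% to 19.2% of all detected probes, and 6 to 16 below, beside 14.0% to 21.7%, also added later. Signal near background limits IL2, IL3, IL4 and CCR9, which were not detected, and also IL6 and IL12A.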
